A study of Mus musculus with 28 samples.

Results

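Rad21 is a subunit of cohesin, and the sites described here are Rad21 peaks of mature olfactory sensory neurons at which neither CTCF nor Ldb1 had a peak. They were chosen by overlap alone, as the peaks of the second Rad21 library on chromosomes 1 to 19, X and Y that shared no base with a peak of either CTCF library or of any of the 3 control Ldb1 libraries. That left 3484 Rad21-only sites of 28151 peaks, or 12.4% (95% Wilson interval 12 to 12.8%, which covers counting error only). The other peaks were 17696 with CTCF alone (62.9%), 4438 with Ldb1 alone (15.8%) and 2533 with both (9%). The absence of CTCF and Ldb1 peaks and the membership in the second Rad21 list are therefore the rule, not a result.

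The series asked what Ldb1 does at the enhancers of odorant receptor genes in mouse olfactory neurons, with chromatin immunoprecipitation and sequencing (ChIP-seq) and with RNA sequencing. Of its 28 samples, the 11 ChIP-seq samples with a peak list were used, 1 list per library. Cells were fixed with formaldehyde and sorted. The antibodies were anti-Rad21 from Abcam, anti-CTCF from Millipore and anti-Ldb1 from Santa Cruz Biotechnology.

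Ldb1 in Lhx2 KO neurons came from mice with OMP-IRES-Cre, both Lhx2 alleles floxed (Lhx2fl/fl) and the reporter Rosa-CAG-tdtom+/fl (2 libraries). There Cre is made from the Omp locus, so Lhx2 is lost only once a neuron matures. Ldb1 in Olfr1507+ cells came from M28-IRES-GFP mice (2 libraries), and these are neurons that express 1 receptor. Rad21 (2 libraries), CTCF (2) and control Ldb1 (3) came from OMP-IRES-GFP neurons, in which Omp, a marker of mature olfactory neurons, drives the GFP used for sorting. The peak lists of control neurons held 10487 and 28151 peaks for Rad21, 27609 and 34210 for CTCF, and 24877, 28879 and 16067 for Ldb1. Those of Lhx2 KO neurons held 4290 and 542, and those of Olfr1507+ cells 5095 and 21250. No read numbers come with the lists, so the depth behind a peak is unknown, and whether libraries of 1 group are from separate animals is not stated.

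Cohesin is a ring that holds and extrudes DNA into loops, and in mammals it is most often found where CTCF stops it. It is loaded by Nipbl and Mau2, released by Wapl, and is also seen at active promoters and enhancers where CTCF is absent. Ldb1 is an adaptor that binds LIM-homeodomain factors such as Lhx2 and joins enhancers to each other and to promoters, and in olfactory neurons Lhx2 and Ebf factors occupy the enhancers that lie between odorant receptor genes.

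The sequences that show this set best are its promoters, since that is where the sites were most concentrated. Below are the 6 strongest promoter sites for which RefSeq (assembly GRCm38.p6) gave a promoter window, each read 5′ to 3′ along the gene's own strand from 250 bases before to 50 bases after its start. Capitals mark matches, on either strand and also where matches overlap, to any of 13 short motifs, the GC box GGGCGG, the CCAAT box CCAAT, the TATA box TATAAA, ETS CCGGAAG, NRF1 GCGCATGCG, CRE TGACGTCA, YY1 AAGATGGCG, ZNF143 ACTACAATT, the E-box CACGTG, Ebf TCCCNNGGG, AP-1 TGANTCA, LIM-homeodomain TAATTA and the X-box of RFX factors GTTGCCATG.
Kcnma1 (chr14:24004156-24004455, minus strand): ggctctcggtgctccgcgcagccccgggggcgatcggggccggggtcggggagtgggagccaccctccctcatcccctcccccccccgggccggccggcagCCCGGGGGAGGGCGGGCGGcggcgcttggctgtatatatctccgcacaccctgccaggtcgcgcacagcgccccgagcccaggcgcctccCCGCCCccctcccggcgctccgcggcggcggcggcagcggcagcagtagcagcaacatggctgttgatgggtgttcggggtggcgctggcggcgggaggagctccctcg
Adgrl3 (chr5:81020502-81020801, plus strand): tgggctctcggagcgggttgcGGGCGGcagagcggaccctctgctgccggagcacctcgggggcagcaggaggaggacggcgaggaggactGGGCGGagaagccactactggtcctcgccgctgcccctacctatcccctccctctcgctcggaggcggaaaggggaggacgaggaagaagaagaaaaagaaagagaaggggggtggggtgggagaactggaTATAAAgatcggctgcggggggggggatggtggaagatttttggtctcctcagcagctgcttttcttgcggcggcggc
Foxo1 (chr3:52268087-52268386, plus strand): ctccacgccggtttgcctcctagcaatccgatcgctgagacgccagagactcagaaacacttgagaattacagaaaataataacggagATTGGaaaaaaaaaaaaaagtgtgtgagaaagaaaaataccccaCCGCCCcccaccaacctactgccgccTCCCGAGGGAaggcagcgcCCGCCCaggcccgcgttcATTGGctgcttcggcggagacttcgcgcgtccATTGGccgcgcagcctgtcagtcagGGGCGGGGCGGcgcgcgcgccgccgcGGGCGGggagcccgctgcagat
Map1b (chr13:99516553-99516852, minus strand): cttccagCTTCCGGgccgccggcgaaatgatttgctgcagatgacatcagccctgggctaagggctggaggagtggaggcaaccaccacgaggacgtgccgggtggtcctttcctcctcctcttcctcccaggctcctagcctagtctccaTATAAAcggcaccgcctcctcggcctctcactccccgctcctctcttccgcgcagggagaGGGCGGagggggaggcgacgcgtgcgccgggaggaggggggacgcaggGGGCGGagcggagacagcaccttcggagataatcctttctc
Csrnp1 (chr9:119983730-119984029, minus strand): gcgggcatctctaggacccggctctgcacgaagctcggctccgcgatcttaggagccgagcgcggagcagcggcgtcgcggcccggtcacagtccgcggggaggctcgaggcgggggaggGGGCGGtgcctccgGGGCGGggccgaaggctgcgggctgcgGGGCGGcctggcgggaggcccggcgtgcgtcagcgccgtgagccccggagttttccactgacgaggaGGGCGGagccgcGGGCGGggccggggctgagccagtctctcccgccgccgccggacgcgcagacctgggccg
Arhgap44 (chr11:65162912-65163211, minus strand): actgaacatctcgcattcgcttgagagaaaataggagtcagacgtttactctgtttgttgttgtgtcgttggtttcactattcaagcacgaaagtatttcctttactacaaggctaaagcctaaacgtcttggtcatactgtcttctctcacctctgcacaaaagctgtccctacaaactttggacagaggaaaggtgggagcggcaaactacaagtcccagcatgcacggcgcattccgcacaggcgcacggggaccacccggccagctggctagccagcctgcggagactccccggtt

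All but 1 of these windows were rich in G and C (61.3 to 78.3%), and the Arhgap44 window, at 51.3%, was the exception. GC boxes gave most of the capitals, with 5 matches each in the Foxo1 and Csrnp1 windows, 3 in Kcnma1, and 2 each in Adgrl3 and Map1b. TATA boxes were found in Adgrl3 and Map1b, an ETS match in Map1b, and CCAAT boxes in Foxo1 (3). Ebf matches were found in Kcnma1 (1) and Foxo1 (2, on opposite strands and overlapping in 1 stretch). No listed motif was found in the Arhgap44 window, of which only 9 bases lay under the peak, and no window held the CTCF core consensus. The peak covered 291 of 300 bases in Csrnp1, 223 in Foxo1, 209 in Kcnma1, 115 in Map1b and 69 in Adgrl3. In Map1b and Adgrl3 these were the last bases of the window. The TATA box and ETS match of Map1b and all matches of Adgrl3 therefore lay outside the peak.

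The Rad21-only sites were weak peaks. The score of a peak is the authors' own whole number, whose definition is not given in the sources used here, and it ranks peaks only within 1 list. All peaks of the second Rad21 list were 304 bases wide and scored from 10 to 234. The Rad21-only sites had a median of 13 and a highest score of 104, against medians of 24 for peaks with CTCF, 15 with Ldb1 and 23 with both. Their median lay at the 23.3 percentile of the list, and that of peaks with CTCF at the 61.3 percentile. They made up 27.2% of the weakest decile of the list, 13.2% of the fifth and 0.178% of the strongest.

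**Figure D1:**
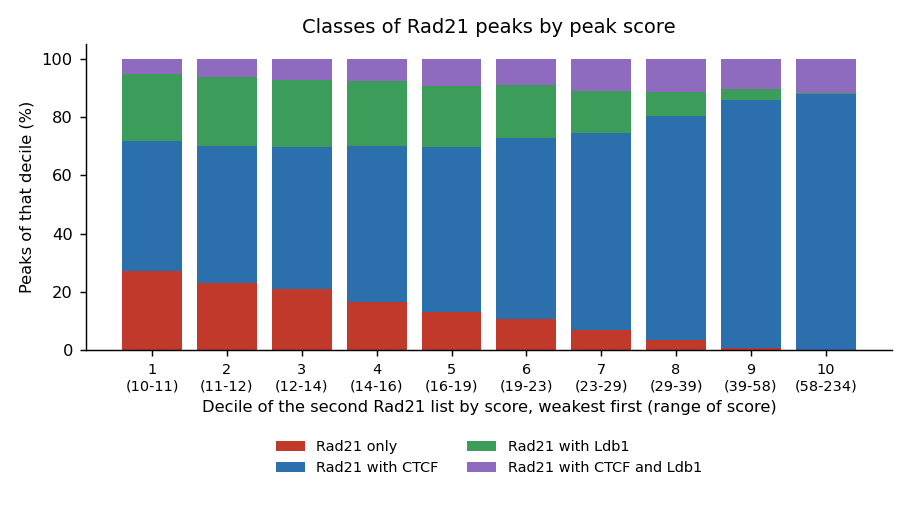
Share of the 4 classes of Rad21 peaks (vertical axis, percent) in each decile of the second Rad21 list ordered by score (horizontal axis, weakest decile first, with the range of the score). The Rad21-only share is 27.2% in the first decile and 0.178% in the last, while the share with CTCF alone is 44.4% in the first and 87.7% in the last.

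The first Rad21 library was not used to choose the sites, and it held a peak at 88 of them (2.53%, interval 2.05 to 3.10%). For the other classes this was so at 8609 peaks with CTCF (48.6%), 296 with Ldb1 (6.67%) and 888 with both (35.1%). Compared at like scores, the classes still differed. In the eighth decile by score the shares were 19.6% for Rad21-only sites, 69.8% with CTCF and 31.2% with Ldb1, and in the fifth decile 1.88%, 24.6% and 3.09%. The Rad21-only share was below the CTCF share in each of the 10 deciles and below the Ldb1 share in 9. No test was run over peaks, because peaks of 1 library are not replicates.

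At the 88 shared sites the first library's own scores had a median of 11 and a maximum of 27, against a median of 15 over its whole list. Turning the rule round, the first library had 144 peaks without CTCF or Ldb1, 1.37% of its 10487, and 89 of them (61.8%) had a peak in the second library. Of the choices tried, the Rad21 library changed the number of sites most.

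Many Rad21-only sites lay at promoters. A promoter here is the RefSeq window of 300 bases described above, and since the windows used here hold none from chromosome 18, the 92 sites there were left out of promoter shares. Of 3392 sites, 1242 touched a window (36.6%, interval 35.0 to 38.3%). The same was true of 9.58% of peaks with CTCF (1643 of 17145), 15.9% with Ldb1 (681 of 4293) and 31.6% with both (772 of 2444). In the first Rad21 library the shares were 22.8% for Rad21-only peaks (31 of 136, interval 16.5 to 30.5%), 4.88% with CTCF, 5.96% with Ldb1 and 15.5% with both. Both libraries thus gave the same order of the Rad21-only and CTCF classes. They are not independent sets, since 89 of the 144 Rad21-only peaks of the first library were peaks of the second too. Of the first library's Rad21-only peaks that had no peak in the second, 6 of 51 were at a promoter (11.8%, interval 5.51 to 23.4%).

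**Figure D2:**
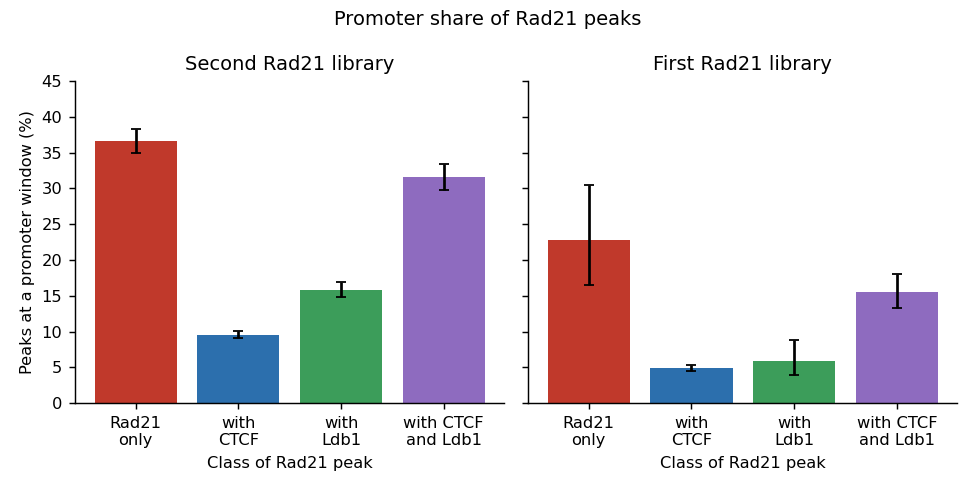
Share of Rad21 peaks that touch a RefSeq promoter window (vertical axis, percent) for each class of peak, in the second Rad21 library that gave the sites (left) and in the first (right), with bars for the share and whiskers for the 95% Wilson interval. Rad21-only peaks are at 36.6% and 22.8%, and peaks with CTCF alone at 9.58% and 4.88%.

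The promoter share of Rad21-only sites varied with the score. It was 27.4% in the weakest decile of the list, 38.6% in the fifth, 46.0% in the eighth, 27.3% in the ninth (6 of 22) and 25% in the strongest (1 of 4). It was above that of peaks with CTCF in each of the 10 deciles, where the CTCF class ranged from 7.17 to 13.5%. Against peaks with both CTCF and Ldb1 it was not higher at every score. That class had 40.7% in the weakest decile, 38.1% in the fifth, 24.4% in the eighth, 19.3% in the ninth and 21.8% in the strongest. In the third decile the shares were 38.7% for Rad21-only sites and 39.1% with both. By the start and end of the annotated gene, where its strand was known, 31.4% of the sites lay within 250 bases of the outer start of a protein-coding gene and 0.890% within 250 bases of its outer end. A further 6.86% lay at an end of a protein-coding gene without a window and could not be given to start or end. For peaks with CTCF these shares were 7.65% and 1.41%. Away from promoter windows and gene ends, 35.4% of the sites were inside a protein-coding gene and 17.4% outside any, against 44.7% and 41.4% for peaks with CTCF. Exons and introns were not told apart.

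Around start sites the Rad21-only sites lay further into the gene than the other classes. Of the sites, 1564 (46.1%) had their centre within 1 kb of a protein-coding start, 846 of them after the start and 718 before it, with a median 10 bases after. In the other classes the share after the start was 43.2% with CTCF, 43.9% with Ldb1 and 37.9% with both, with medians 28, 25 and 44 bases before the start. From 250 to 1000 bases after the start lay 270 sites, 7.96% of the set, against 2.13%, 2.33% and 2.99% in those 3 classes. These shares describe the set and were not tested.

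**Figure D3:**
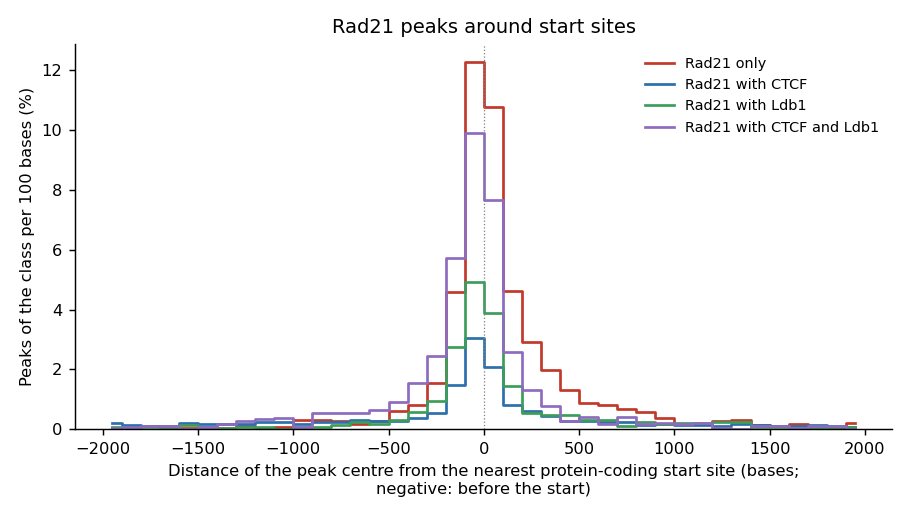
Distance of the centre of each Rad21 peak from the nearest protein-coding start site (horizontal axis, bases, negative before the start) against the share of the class in bins of 100 bases (vertical axis, percent). The Rad21-only curve is the highest at the start, and its right flank is wider than its left: 7.96% of the sites lie 250 to 1000 bases after a start and 3.21% at the same distance before it.

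The promoters with Rad21-only sites were of the CpG-rich kind, as were those of the other Rad21 classes. The 1403 protein-coding windows with a site had a median G and C content of 63.3%, 24 CpGs and an observed over expected CpG ratio of 0.816, and 86.1% had a ratio of at least 0.6. The 1655 windows with Rad21 and CTCF had 64.3%, 25 CpGs and a ratio of 0.820. All 21238 protein-coding windows had 56.3%, 13 CpGs and 0.567, and 47.7% of them reached 0.6. Another start on the opposite strand lay at most 1 kb upstream in 22.7% of the windows with a Rad21-only site and 12.2% of all. It did so in 18.2% of the windows with CTCF, 24.5% with Ldb1 and 23.2% with both.

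The GC box was in 73.5% of windows with a Rad21-only site and 46.2% of all protein-coding windows. It was in 70.0% of windows with CTCF, 74.5% with Ldb1 and 78.8% with both. In 3 about equal groups of windows by G and C content, it was in 28.6% of windows with a site (26 of 91) and 8.63% of all in the least GC-rich group, 59.9% and 46.8% in the middle group, and 87.2% and 84.7% in the most GC-rich. For windows with CTCF the shares in these groups were 23.1% (25 of 108), 52.4% and 84.2%. The ETS motif was in 21.0% of the windows with a site, 21.8% with CTCF and 11.6% of all. By the same groups it was in 18.7% of windows with a site (17 of 91) and 3.50% of all in the least GC-rich, 19.8% and 14.6% in the middle, and 22.0% and 17.0% in the most GC-rich. YY1 was in 4.35%, 4.11% and 1.83%, and NRF1 in 3.92%, 3.93% and 2.35%. The CRE, bound by CREB family factors, was in 3.56% of windows with a site and 2.24% of all, the E-box in 11.8% and 7.84%, and ZNF143 in 0.855% and 0.509%. The RFX X-box was in 1.14% of windows with a site and 0.687% of all. In windows with Ldb1 and with both, ETS was in 21.7% and 21.7%, and YY1 in 4.40% and 3.58%. There NRF1 was in 5.91% and 4.38%, the CRE in 6.04% and 4.38%, and the E-box in 11.1% and 11.3%.

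The CCAAT box was in 37.3% of windows with a Rad21-only site and 38.2% of all, while windows with Rad21 and Ldb1 had it in 52.9%. Ebf was in 7.34% and 7.26%. AP-1 was in 3.71% and 6.99%, the TATA box in 4.63% and 12.6%, and the LIM-homeodomain motif, which is AT-rich, in 0.927% and 4.54%. In the most GC-rich group of windows Ebf was in 8.34% with a site and 11.2% of all. AP-1 was there in 2.86% and 3.23%, and the TATA box in 1.62% and 2.96%. The CTCF core consensus was in 0 of 1403 windows with a site, with an upper bound of 0.273%, against 3.81% of windows with Rad21 and CTCF and 0.560% of all; the choice of sites had removed peaks with CTCF. The shorter CTCF core CCCTC was in 76.7% of windows with a site, 78.6% with CTCF and 69.6% of all. A match is a string of letters and no evidence that a factor sits there.

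CTCF or Ldb1 peaks were often near. The gap from a Rad21-only site to the nearest CTCF or control Ldb1 peak had a median of 2238 bases, and it was under 100 bases at 294 sites (8.44%), under 1 kb at 1292 (37.1%) and at least 10 kb at 789 (22.6%). The promoter share was 34.6% at gaps under 100 bases, 38.6% from 1 kb and 45.1% from 10 kb. Just outside the rule were 168 Rad21 peaks that shared fewer than 50 bases with a CTCF or Ldb1 peak. Their median score was 14 and 44.7% of those off chromosome 18 were at a promoter, against a median of 15 and 34.6% for the sites just inside it. Of the excluded peaks, 93.0% shared at least 200 bases. The second CTCF library alone excluded 2541 peaks.

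Strong sites lay near a CTCF peak, and near a control Ldb1 peak, more often than weak ones. Among the 130 sites that scored 30 or more, 40.8% lay within 1 kb of a CTCF peak, 42.3% within 1 kb of a control Ldb1 peak and 23.8% had a peak in the first Rad21 library. Among the 1043 that scored 10 or 11 these shares were 10.8%, 17.7% and 0.288%. The promoter share differed less, 42.1% and 29.3%. Of the 20 highest scores, 15 had a CTCF peak within 1 kb, 6 had a control Ldb1 peak within 1 kb and 9 were found in the first library.

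**Figure D4:**
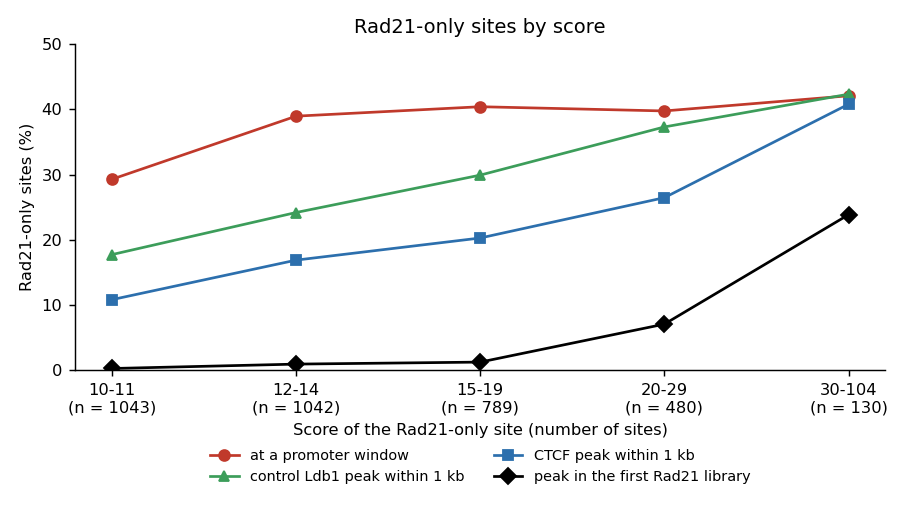
Rad21-only sites grouped by their score (horizontal axis, with the number of sites) against the share of each group (vertical axis, percent) that lies at a promoter window, has a control Ldb1 or a CTCF peak within 1 kb, or has a peak in the first Rad21 library. The share near a CTCF peak is 10.8% in the weakest group and 40.8% in the strongest, and that near a control Ldb1 peak 17.7% and 42.3%. The share in the first library is 0.288% and 23.8%, and the promoter share 29.3% and 42.1%.

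The site with the highest score, 104, lay in Zfp516, a zinc finger gene, 21 bases from a CTCF peak, and the first Rad21 library had a peak there with a score of 23. It was followed by a site of score 83 in Syt7, a calcium sensor of vesicle release, and by 78 at the promoter of Kcnma1. Sites of score 62 in Myo10, an unconventional myosin, 59 at 11.2 kb from the homeobox gene Lbx1, 54 in the protease gene Tmprss6 and 52 at 4.43 kb from Abcc12, a transporter gene, were each 255 to 311 bases from a CTCF peak. Those 4 had first-library scores of 15, 27, 16 and 19. Next came 51 in Foxo3, a forkhead factor, and 50 both near the autophagy gene Atg101 and in Clstn2, a synaptic calsyntenin.

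Not all strong sites had CTCF beside them. The Foxo3 site was 56.0 kb from the nearest CTCF peak but 67 bases from a control Ldb1 peak. The Clstn2 site, 20.5 kb from CTCF and 3.56 kb from Ldb1, was in the first library with a score of 11. Reep1, whose protein belongs to a family first described as helping receptors to the cell surface, had a site of 49 at chr6:71724221-71724524 with a first-library score of 14. It was 342 bases from CTCF, 284 from Ldb1 and in 1 Lhx2 KO Ldb1 list. Sites of 45 lay in Kctd16, a subunit of GABA-B receptors, in Tmem29 and in Plxna4, a semaphorin co-receptor, and sites of 44 near Serp2 and Fbxl17. Of the 10 strongest sites found in both libraries the last was a tie at 42, taken by position, of a site 19.5 kb from Ttll10, with 15 in the first library, and a site 71.0 kb from Ncam1, a neural adhesion gene.

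The strongest promoter site was that of Kcnma1. Kcnma1, the BK calcium-activated potassium channel, had a score of 78 at chr14:24004061-24004364, 565 bases from a CTCF peak. Adgrl3, the adhesion receptor latrophilin-3, had 54, Foxo1, a forkhead factor, 49, and Map1b, a microtubule-associated protein, 44. Csrnp1 had 42, and Arhgap44, a GTPase-activating protein, and Tuba1a, an alpha-tubulin of neurons, 41 each. The start shared by Septin2 and Hdlbp had 39, as had Fgf12, an intracellular relative of the fibroblast growth factors, and Suv39h2, a histone H3 lysine 9 methyltransferase, had 38. The last place was a tie of 5 promoter sites at 38, taken by position, and the others in it were Mapkap1, Atrn, Slc24a2 and Irf2bp2. None of the 9 sites above the tie had a peak in the first Rad21 library, and in the tie only Mapkap1 had one. The Arhgap44 site was 33.1 kb from CTCF, and the other 9 of the 10 named first were within 1 kb of it, at 11 to 987 bases.

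The 27 promoter sites found in both Rad21 libraries scored at most 38 in the second list. They were led by Mapkap1, a subunit of the mTORC2 kinase complex, with scores of 38 in the second and 10 in the first library and 73624 bases to the nearest CTCF peak. Casz1, a zinc finger factor, had 37 and 13, and Nedd9, an adhesion scaffold, 36 and 10. Camk1, a calcium and calmodulin-dependent kinase, had 36 and 10, Fyn, a Src-family kinase, 29 and 12, and Srrm4, the neural splicing regulator, 27 and 11. Med27, a Mediator subunit, had 21 and 16 at chr2:29346689-29346992, 54511 bases from CTCF and 23733 from Ldb1. Ssbp3, whose protein binds and stabilizes Ldb1, had 23 and 10, with a control Ldb1 peak 858 bases away. Kansl3, of a histone acetyltransferase complex, was the highest of them in the first library next to Med27, with 15, yet had 11 in the second. Apart from Med27, the genes of this paragraph were chosen after their values were seen.

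Over all genes, 1271 of 17492 protein-coding genes with a window had a Rad21-only site at the promoter, or 7.27%, and 1403 of 21238 windows, or 6.61%. A peak of Rad21 with CTCF was at 1519 of the same genes, or 8.68%. In the gene body, 2573 of 21779 protein-coding genes held a Rad21-only site, or 11.8%. Any peak of the second Rad21 library was at the promoter of 4220 genes (24.1%). The gene lists below are small, so their counts are given beside these shares and were not tested. In the neuronal, ciliary and housekeeping lists, any peak of the second Rad21 library was at 23.5% (translation factors) to 60% (odor transduction) of promoters. Only the translation factors were below the 24.1% of all genes, so Rad21-only shares above 7.27% are not particular to this class of peak.

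Of the regulators of olfactory neuron identity, 3 of 18 had a promoter site and 7 of 22 a site in the body. Lhx2, the LIM-homeodomain factor that recruits Ldb1, had a score of 29 at chr2:38350940-38351243. Ldb1 itself had 2 promoter sites, the stronger with 18 at chr19:46039549-46039852. Rcor1, the CoREST partner of Kdm1a, had 16, and Ebf2 a site of 28 in its body. None of these 4 was in the first Rad21 library. Ebf1 had 1 body site, with a score of 12, and no Rad21 peak at its promoter window.

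Of the odor transduction genes, 2 of 15 had a promoter site and 6 of 20 a body site. They were Kcnma1 with 78 and Gnb1, a G protein beta subunit, with 16. Pde1c, the ciliary phosphodiesterase, had 23 in its body, and Gnal, which encodes the olfactory G protein alpha subunit, had 3 body sites of up to 17. Cnga2, the cyclic nucleotide-gated channel, and Adcy3, the odor-activated adenylyl cyclase, had no Rad21-only site. Omp has no window used here and held no body site. Adcy3 had a Rad21 peak with CTCF at its promoter window.

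Genes of axons and synapses had a site in the body more often than at the promoter, as had all protein-coding genes (11.8% and 7.27%). Body counts include promoter sites that overlap the gene, and over the whole set 1185 of 1242 promoter sites lay in a gene body. Of the axon guidance genes, 2 of 16 had a promoter site, Ncam2 with 13 and Plxna3 with 12, and 9 of 24 a body site. Plxna4 held 6 sites over 443.7 kb, the most of any protein-coding gene, and Robo2, a Slit receptor, a site of 31 that was also in the first library. The strongest Plxna4 site, with 45, lay across an end of the annotated gene and touched no promoter window. Of the presynaptic genes, 2 of 17 had a promoter site, Rab3a with 17 and Bsn, the scaffold Bassoon, with 15. In the bodies 9 of 22 held one, with 33 in Syt1, the fast calcium sensor, and 29 in Snap25, a SNARE. Of the immature neuron markers, Tubb3 alone had a promoter site (1 of 7), with 22, and 4 of 12 had a body site.

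Gene length moved with these body counts, and its part in them was not tested. Of the longest of 3 equal groups of protein-coding genes 19.9% held a Rad21-only site, of the middle group 10.8% and of the shortest 4.72%, and genes with a site had a median length of 39.9 kb, against 17.2 kb for all. The axon guidance genes had a median of 216.4 kb, and 8 of the 19 in the longest group held a site. Of the presynaptic genes 7 of 15 in that group did, and of the transduction genes 5 of 13. Of the genes with a site, 2260 held 1, 241 held 2 and 72 held 3 or more. After Plxna4 came Abr, Myt1l and Pde7b with 5 each and Akap6, tied with others, with 4.

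Ciliary transport genes, which build the cilium that carries odorant receptors, had a promoter site in 4 of 29. Ttc8, a subunit of the BBSome cargo complex, had 31 in the second and 10 in the first Rad21 library. Kif3b, a kinesin-2 motor subunit, had 22, Ift88, of the intraflagellar transport complex, 19, and the BBSome gene Bbs7 10. Of the activity-dependent genes 2 of 26 had one. Fos, the immediate-early transcription factor, had 24 in the second library and 11 in the first, at chr12:85473702-85474005, 1306 bases from a CTCF peak, and Nr4a3 had 14.

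Housekeeping machines gave similar shares. A promoter site was at 4 of 27 Mediator genes, Med27 (21), Med22 (14), Med25 (13) and Cdk8 (13), and at 4 of 24 proteasome genes, of which Psma5 had the highest score, 13. The start of Med22 is shared with the ribosomal protein gene Rpl7a, and 1 peak covers both. Of the cohesin and CTCF machinery 2 of 13 had one, the loader subunit Mau2 with 16 and Yy1 with 11, and Wapl had 15 in its body. Ctcf had no site, and the Rad21 gene, which has no window used here, had none in its body. The counts were 2 of 20 for RNA polymerase II and pausing factors (Hexim1 14, Polr2e 10), 2 of 17 for translation factors (Eif4e 20, Eif5a 12), 2 of 16 for a mixed housekeeping list (Tuba1a 41, Gapdh 16) and 6 of 63 for ribosomal proteins, led by Rps10 with 16. Chaperone genes had 0 of 19, while 5 of the same 19 had a Rad21 peak with CTCF.

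**Figure D5:**
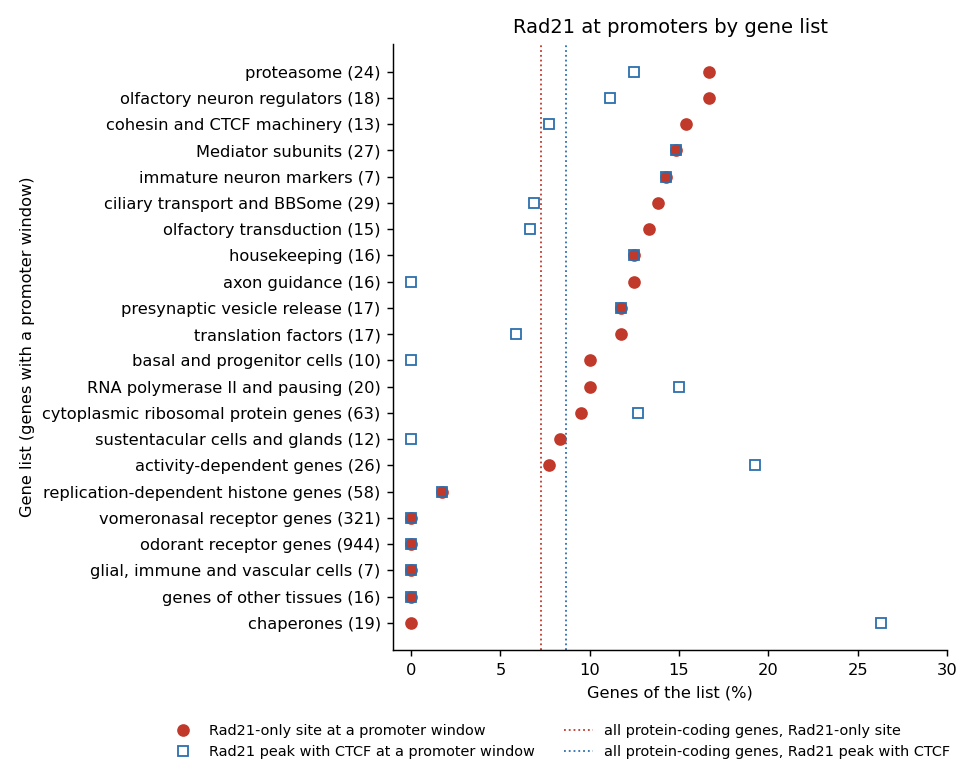
Share of the genes of each list (horizontal axis, percent; number of genes with a promoter window in brackets) with a Rad21-only site at the promoter (filled circles) or with a Rad21 peak with CTCF there (open squares). Dotted lines give the same shares over all protein-coding genes, 7.27% and 8.68%. Lists of neuronal, ciliary and housekeeping genes lie from 7.69% to 16.7% for Rad21-only sites, except the chaperones, and the receptor genes and the genes of other tissues lie at 0. Basal and progenitor cell genes lie at 10% (1 of 10) and sustentacular and gland genes at 8.33% (1 of 12). Any peak of the second Rad21 library, not drawn, was at 23.5 to 60% of the promoters of the neuronal, ciliary and housekeeping lists. It was at 24.1% of all protein-coding promoters and at none of the receptor genes and genes of other tissues.

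Lists of genes of other tissues and of other cells held 0 or 1 promoter sites each. None of 16 genes of other tissues had one at the promoter and none of 20 in the body, and of the glial, immune and vascular markers 0 of 7 and 0 of 15. The promoters of these 2 lists had no peak of any class in the second Rad21 library. Of the basal and progenitor cell genes 1 of 10 had a promoter site, Mki67 with 13, and of the sustentacular and gland genes 1 of 12, Krt8 with 10. Their shares, 10% and 8.33%, were not below the 7.27% of all protein-coding genes. Of the replication-dependent histone genes 1 of 58 had one, H1f4 with 10. Of the annotated lncRNA genes 145 of 9533 (1.52%) had a promoter site, among them Gm26559 and Gm33800, which start at the Map1b and Csrnp1 sites. In a list of well-known lncRNA genes, Malat1 included, the count was 0 of 16, and 2 of 21 held a site in the body, Miat with 13 and Kcnq1ot1 with 12. Neat1 has no window used here and held no body site. Among small RNA genes, 3 of 403 tRNA genes, 1 of 1330 snoRNA genes and 5 of 1228 miRNA genes overlapped a site, and 0 of 997 snRNA genes.

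Odorant receptor genes, the main subject of the series, had none. No Rad21-only site touched any of 944 odorant receptor promoter windows or 1109 gene bodies, nor any of 321 vomeronasal receptor windows. Rad21 peaks of the other classes in the second library touched none of these windows either, so this absence is not particular to Rad21-only sites. The 43 receptor clusters, extended by 100 kb on both sides, cover 38.5 Mb, and 17 sites lay in them (0.488%, interval 0.305 to 0.780%), in 13 clusters. Peaks with CTCF were there at 0.729%, with Ldb1 at 0.473% and with both at 0.474%. Of the 17 sites 10 were at the promoter of another gene, such as Echs1, a mitochondrial enzyme, with 19, Mprip, a myosin phosphatase partner, with 15, and Pdxk, pyridoxal kinase, with 14. Only 3 were between the first and last receptor gene of a cluster, at the promoters of Zscan12, Osbp and Zfp62, with 13, 12 and 10. A site in Cnga4, a subunit of the olfactory channel, had 17. No site in a cluster was in the first Rad21 library.

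The Ldb1 lists of Lhx2 KO neurons and Olfr1507+ cells were not used in the choice, and 358 sites (10.3%) had a peak in at least 1 of them. This was so for 1.66% of peaks with CTCF, 81.1% with Ldb1 and 55.7% with both. In Lhx2 KO neurons 188 sites (5.40%) had a peak in the first library and 9 (0.258%) in the second. In Olfr1507+ cells these were 11 (0.316%) and 185 (5.31%). Over all peaks of the second Rad21 library the shares were higher, 7.64% and 1.09% in KO neurons and 6.40% and 17.8% in Olfr1507+ cells. Those peaks include the ones with control Ldb1 that the rule removed from the sites. Of the KO lists' peaks, 4.38% and 1.66% lay at Rad21-only sites, and of the Olfr1507 lists' peaks 0.216% and 0.871%. The KO libraries averaged 3.02% ± 1.92 and the Olfr1507 libraries 0.543% ± 0.463 (SD, n = 2 each), a difference of 2.48 percentage points. Both KO values were above both Olfr1507 values, and an exact permutation test over the 4 libraries, two-sided, gave p = 0.333, the smallest this design allows. The lists differ in length, and limited to the 542 highest scores of each the shares were 2.03% and 1.66% in KO neurons and 0% and 0.554% in Olfr1507+ cells. The rule had removed Rad21 peaks with control Ldb1, so it could lower the share of any list that follows control Ldb1. Of the 4438 peaks with Ldb1 alone, the KO lists had a peak at 1286 and 221, and the Olfr1507 lists at 1511 and 3440. How far the choice of sites set the direction of the difference was not tested. A short list of weak peaks, this choice and a change of Ldb1 binding cannot be told apart here.

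Of the 188 sites with a peak in the first KO library, 88 were at a promoter (46.8%), 12 were in the first Rad21 library, and 24 also had a peak in the second Olfr1507 library. Their median Rad21 score was 17. Of the peaks of the other classes with a peak in the first KO library, 60.1% with CTCF were at a promoter (95 of 158). The share was 10.6% with Ldb1 (132 of 1249) and 34.0% with both (167 of 491), chromosome 18 left out. The 9 sites of the second KO library lay in Dcaf6 (27), Gse1 (26), Foxo6 (25), Ahcyl2 (22), Cfap20 (18), Kdm2a (17), Srsf7 (16), Rac1 (15) and U2surp (14), with the Rad21 score in brackets, and 5 of them were at a promoter. Of these, 4 were also in the first KO library, at Gse1, Foxo6, Cfap20 and U2surp. Control Ldb1 peaks were close to several, at 4 bases for U2surp, 27 for Ahcyl2 and 30 for Srsf7. These 9 were named after their values were seen.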

How the data were processed

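Crosslinked ChIP-seq peak lists were used, 1 per library. Tools named in the submitters' processing notes, with no role, are Bowtie2 2.3.2, HOMER 4.7, SAMtools 1.3.1, cutadapt 1.9.1, Picard and STAR 2.5.3a, and the build is mm10. Peak threshold, control and filters: not given in the sources used here. The deposited score of each peak is the authors' whole number and ranks peaks only within a list. Overlap meant at least 1 shared base. Gene positions and promoter windows came from RefSeq GRCm38.p6 tables, with windows for 17492 of 21779 protein-coding genes and none from chromosome 18. Input and RNA samples were not analysed here.

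The sites, gene lists and motifs were chosen with earlier results of these data known. Named sites are the 20 highest scores, the 10 highest also in the first Rad21 library, the 10 highest at promoters, up to 4 genes per list by score, the 5 genes with most sites and 11 genes always looked up. Others are marked as chosen afterwards. Of the named sites, 1 is not reported here. Shares carry 95% Wilson intervals, and the 2 Ldb1 groups were compared by exact permutation over libraries. Other overlaps, thresholds and left-out libraries were tried. The overlap code was checked on simulated peaks. Python 3.11.15, numpy 2.4.6, pandas 2.3.3, scipy 1.17.1 and matplotlib 3.10.9 were used.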

Additional observations from a re-analysis of the deposited data

How the results depend on the processing

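Leaving out 1 library at a time gave 144 to 6025 sites, or 1.37 to 21.4% of the Rad21 list. The lowest values come from taking sites from the first Rad21 library, without the second, and the highest from leaving out the second CTCF library, which alone excluded 2541 peaks. Over the same settings 2.43 to 61.8% of the sites had a peak in the other Rad21 library, and the median score percentile was 17.8 to 28.8. The promoter share was 22.8 to 37.5%, the share in gene bodies 74.3 to 84.5% and that in receptor clusters 0 to 0.579%. The share of genes with a promoter site was 0.160 to 12.3%.

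With only the higher-scoring 50% of the Rad21 list, 623 sites were left, 4.43% of that list. Of these 10.4% were in the first Rad21 library, 40.4% at a promoter, 86.5% in a gene body and 0% in a receptor cluster, the median percentile was 61.3, and 1.44% of genes had a promoter site. With only the higher-scoring 50% of each CTCF and Ldb1 list, 10325 sites were left, 36.7% of the list. Of these 7.00% were in the first Rad21 library, 29.9% at a promoter and 78.8% in a gene body, the median percentile was 28.8, and 17.4% of genes had a promoter site. Fewer peaks to give or to exclude sites are part of how both settings are built.

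Requiring at least 1000 bases to any CTCF or Ldb1 peak left 2192 sites, 7.79% of the list, with 1.87% in the first Rad21 library, 38.6% at a promoter and 4.89% of genes. With a reciprocal overlap of 50% the sites were 15.7% of the list, 3.20% of them in the first library, at 9.59% of gene promoters. With centres within 200 bases these were 14% of the list and 8.46% of genes. With all 7 Ldb1 lists excluding sites they were 11.1% and 6.55%. Within 2500 bases of a gene start or end lay 62.3% of the sites and 10.5% of genes. Protein-coding bodies alone held 79.2%, and clusters without flanks 0.0861%.

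The difference between Lhx2 KO and Olfr1507 Ldb1 lists stayed positive, at 1.12 to 3.84 percentage points without 1 library at a time, the lowest without the first Lhx2 KO library and the highest without the second, and 1.57 at equal list lengths. Paired by replicate number as a block it was 2.48 again, with an exact permutation p of 0.5, and with 2 libraries per group the numbers cannot be shown to pair anything. Of 108 values recomputed, 50 counted as moved, which for a share means beyond its counting interval and for a number by over 1.5 times. This tested difference was judged by its direction alone, and every setting tried for it kept the rule that removed peaks with control Ldb1. Depth per library is unknown, so a missing peak is not missing binding. For the moved values other than those above, the cause was not tested.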

Other observations

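Rad21-only sites were spread over the genome. Their share of the Rad21 peaks of an autosome ranged from 10.5% on chromosome 18 to 14.5% on chromosome 13, with 13.5% on the X chromosome (59 of 437) and 0 of 2 peaks on the Y chromosome. The median distance between neighbouring sites was 229 kb, and 325 sites (9.33%) had another within 10 kb.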
